A study of Homo sapiens with 6 samples.

Results

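CD44, the hyaluronan synthases, the hyaluronan receptor HMMR and the membrane-cytoskeleton linkers of the ERM family were examined in RNA-seq libraries. The libraries are labelled H1650, the name of an established human lung adenocarcinoma cell line. The genes were chosen by name: CD44, HAS2, HAS3, HMMR, EZR, MSN, RDX and NF2, and all 8 were among the 15897 genes listed in the deposited table. They were picked with their control and shSETD2 levels already known, so these levels are given as a description with no test. There were 6 libraries in 2 groups. The 3 control libraries were labelled wild type. The other 3 were labelled shSETD2, for cells in which short hairpin RNAs against the histone methyltransferase SETD2 had been introduced. The study made the silenced cells with 3 hairpin constructs, and the labels do not say which construct a library carries. Nor do they say whether the 3 libraries of a group came from separate cultures, so the spread between them may be technical.

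Hyaluronan is a long unbranched sugar polymer of the extracellular matrix. Hyaluronan synthases (HAS1, HAS2 and HAS3) sit in the plasma membrane and extrude it, and the cell surface glycoprotein CD44 is its main receptor. The cytoplasmic tail of CD44 is held to cortical actin by ezrin (EZR), moesin (MSN) and radixin (RDX), the ERM proteins. Merlin, encoded by NF2, is related to them in sequence, also binds the CD44 tail, and acts upstream of the Hippo kinases. HMMR, also called RHAMM, binds hyaluronan at the cell surface and is a spindle protein inside dividing cells.

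Values are FPKM, that is fragments scaled to gene length and library size by the authors. Their sum over the listed genes was between 218768.9 and 224603.3 in the 6 libraries. On log2(FPKM + 1), libraries of a group correlated across genes with Pearson's r of 0.985 to 0.991, and libraries of different groups with 0.756 to 0.761. The targeted gene SETD2 had 18.0, 10.2 and 17.6 FPKM in control libraries 1 to 3, against 8.97, 8.09 and 12.2 FPKM in shSETD2 libraries 1 to 3, and the groups overlapped. Its log2 fold change was -0.58 (standard error 0.24), with an adjusted p of 0.0641 from limma. Libraries are therefore named by their labels only. Of 12 markers of lung epithelium, 4 were listed, and their summed FPKM was 3.73 to 4.82 in control and 3.96 to 4.89 in shSETD2 libraries. The list went both ways. NKX2-1, a lung lineage factor, was at a mean of 1.65 FPKM in control and listed at 0 in every shSETD2 library, and AGER was at means of 1.25 and 0.670 FPKM. MUC1 was at means of 0.639 FPKM in control and 2.65 FPKM in shSETD2 libraries, and LAMP3 at 0.584 and 1.23 FPKM. The surfactant genes were not listed.

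CD44 (ENSG00000026508.17_4) is a plus-strand gene of chromosome 11 (GRCh37, 35160417 to 35253949). In control libraries 1 to 3 it had 0.0801, 0.118 and 0.0941 FPKM, and in shSETD2 libraries 1 to 3 it had 103.6, 107.1 and 102.9 FPKM. The gene was close to absent in every control library and abundant in every shSETD2 library. In rank among all listed genes it stood between the percentiles 5.76 and 6.33 in the control libraries and between 98.6 and 98.8 in the shSETD2 libraries. The log2 fold change on the log2(FPKM + 1) scale was 6.59 (standard error 0.043, n = 3 per group). This scale understates the change of a gene with such low control values, and the difference was 9.05 with a pseudocount of 0.1. CD44 is spliced into many isoforms with variable exons, which values per gene do not separate. In bulk RNA, fewer cells that express a gene and less RNA per cell cannot be told apart.

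The bases upstream of a start are shown for 3 genes. CD44 and HAS3 had the largest differences among the 8. EZR is the ERM gene whose window held matches to the AP-1 and NF-kB motifs. For CD44 they are the 250 bases before the gene start in the deposited table, chr11:35160167-35160416 on the plus strand of GRCh37. For HAS3 and EZR they are the 250 bases before the RefSeq start site, matched to GRCh37 at chr16:69141193-69141442 on the plus strand and chr6:159239268-159239517 on the minus strand. The HAS3 and EZR stretches lie inside the spans of these genes in the deposited table, 69139467 to 69152622 and 159186773 to 159240444. They hold no base of an annotated exon of the gene. Capitals mark the motif matches.
CD44: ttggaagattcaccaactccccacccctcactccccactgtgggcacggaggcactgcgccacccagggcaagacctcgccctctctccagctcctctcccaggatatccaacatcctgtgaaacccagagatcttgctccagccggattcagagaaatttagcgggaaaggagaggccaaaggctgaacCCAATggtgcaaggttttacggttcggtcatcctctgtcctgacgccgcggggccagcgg
HAS3: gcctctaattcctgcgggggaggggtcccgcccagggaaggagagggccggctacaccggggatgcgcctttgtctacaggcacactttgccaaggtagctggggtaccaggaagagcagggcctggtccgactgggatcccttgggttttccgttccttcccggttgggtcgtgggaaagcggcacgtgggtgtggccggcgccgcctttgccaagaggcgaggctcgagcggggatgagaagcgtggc
EZR: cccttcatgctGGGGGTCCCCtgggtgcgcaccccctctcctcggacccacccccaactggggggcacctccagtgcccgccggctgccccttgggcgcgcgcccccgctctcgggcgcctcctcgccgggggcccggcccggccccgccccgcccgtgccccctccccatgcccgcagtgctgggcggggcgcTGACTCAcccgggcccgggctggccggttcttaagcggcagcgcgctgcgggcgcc

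The motifs searched on both strands were AP-1 (TGANTCA), NF-kB (by its usual 10-base consensus), TEAD (GGAATG), the TATA box (TATAAA) and the CCAAT box (CCAAT). The stretch of CD44 held 1 CCAAT box, and that of HAS3 held no match. That of EZR held an AP-1 match 56 bases and an NF-kB match 239 bases before the RefSeq start. The GC content of these stretches was 59.2%, 66.0% and 80.8%. RefSeq promoter windows of 300 bases (GRCh38.p14, 250 before and 50 after a start) were found for 7 of the 8 genes, HAS2 not being analysed, and EZR was the 1 gene of 7 with an AP-1 match and the 1 with an NF-kB match. HMMR was the 1 gene with TEAD matches. The CCAAT box was in windows of 2 genes, HMMR and NF2, and the TATA box in 0 of 7. In the CD44 and HMMR windows all 250 bases before the start lay in annotated exons. The CD44 window begins beyond the stretch shown above, so it does not hold the CCAAT box printed there. Of all 35116 windows of the table, 7.71% held AP-1, 11.3% NF-kB, 14.0% TEAD, 11.5% the TATA box and 34.6% the CCAAT box. A match of these letters is a description of the sequence only.

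HAS3 (ENSG00000103044.10_2), the synthase on chromosome 16 from 69139467 to 69152622, was the other gene that went from near absence to abundance. It had 0.185, 0.587 and 0.510 FPKM in control libraries 1 to 3, against 53.6, 48.4 and 51.1 FPKM in shSETD2 libraries 1 to 3. All shSETD2 libraries lay far above all control libraries, and the log2 fold change was 5.20 (standard error 0.12). HAS2 (ENSG00000170961.6_2), the synthase on chromosome 8, had 0.181, 0.146 and 0.194 FPKM in control libraries 1 to 3, against 0, 0.0226 and 0 FPKM in shSETD2 libraries 1 to 3. It was thus barely detected in either group and lower in the shSETD2 libraries, and it was the 1 gene of the 8 whose mean FPKM was under the filter of 0.5. HAS1 was not listed. In the shSETD2 libraries HAS3 was therefore the synthase that carried nearly all the FPKM of the listed synthase genes, while in control libraries HAS3 was 1.02 to 4.02 times HAS2 at levels under 1 FPKM for both.

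HMMR (ENSG00000072571.19_3, chromosome 5 from 162887209 to 162918951), the other hyaluronan receptor of the set, was expressed in both groups. It had 18.6, 18.5 and 16.6 FPKM in control libraries 1 to 3, against 20.5, 24.9 and 20.0 FPKM in shSETD2 libraries 1 to 3. The groups did not overlap, but they lay close, and the log2 fold change was 0.26 (standard error 0.093). Without shSETD2 library 2, the highest of them, it was 0.17. Per length, HMMR was 156.6 to 232.4 times CD44 in the control libraries. In the shSETD2 libraries the order was turned, and CD44 was 4.31 to 5.15 times HMMR.

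**Figure D1:**
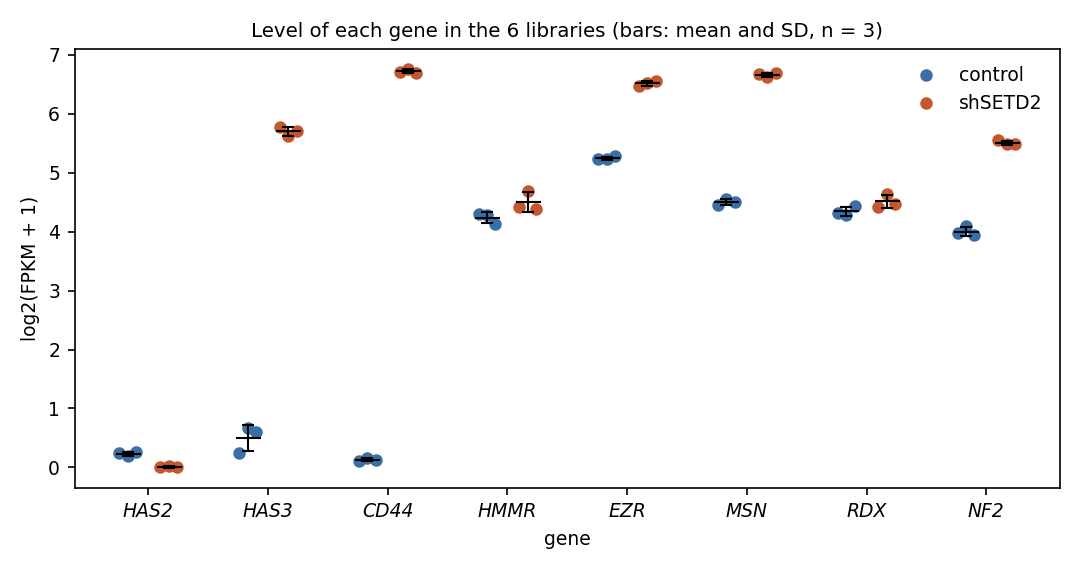
Expression of the 8 genes as log2(FPKM + 1) in 3 control (blue) and 3 shSETD2 (orange) libraries, with points for libraries and black bars for the mean and SD. CD44 and HAS3 go from near 0 to among the highest levels, EZR, MSN and NF2 are separated between groups at levels that are high in both, HMMR and RDX lie close together, and HAS2 is near 0 throughout.

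Of the ERM genes, moesin differed most. MSN (ENSG00000147065.16_3, chromosome X from 64808257 to 64961793) had 20.9, 22.4 and 21.7 FPKM in control libraries 1 to 3, against 100.6, 97.8 and 102.2 FPKM in shSETD2 libraries 1 to 3. The ratio of its means was 4.63 and its log2 fold change 2.16 (standard error 0.039). EZR (ENSG00000092820.17_2, chromosome 6 from 159186773 to 159240444) was at 36.4, 36.6 and 37.8 FPKM in control and 87.7, 91.2 and 93.0 FPKM in shSETD2 libraries 1 to 3. Its ratio of means was 2.45 and its log2 fold change 1.27 (standard error 0.037). For both genes all shSETD2 libraries lay above all control libraries by much more than the spread within a group. RDX (ENSG00000137710.14_3, chromosome 11 from 110045605 to 110167447) was at 19.0, 18.5 and 20.6 FPKM in control and 20.5, 23.9 and 21.2 FPKM in shSETD2 libraries 1 to 3. Radixin was the 1 gene of the 8 whose groups overlapped, since shSETD2 library 1 lay below control library 3, and its log2 fold change was 0.16 (standard error 0.071). Without shSETD2 library 2 it was 0.10.

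In the control libraries the FPKM of the 3 ERM genes summed to 78.0 ± 1.94 (SD, n = 3). In the shSETD2 libraries the sum was 212.6 ± 3.75 (SD, n = 3). Its make-up differed too, and shares within a library do not depend on the factor by which a library is scaled. The share of ezrin was 47.4% ± 0.289 (SD, n = 3) of the sum in control, against 42.6% ± 0.529 (SD, n = 3) in shSETD2 libraries. That of moesin was 27.8% ± 0.964 (SD, n = 3) in control, against 47.1% ± 1.15 (SD, n = 3). That of radixin was 24.8% ± 0.902 (SD, n = 3) in control, against 10.3% ± 0.803 (SD, n = 3). Ezrin thus led the family in the control libraries and moesin in the shSETD2 libraries, where the ratio of MSN to EZR was 1.07 to 1.15 against 0.573 to 0.611 in control. The FPKM of CD44 came to 47.6% to 50.3% of the ERM sum in the shSETD2 libraries and to 0.105% to 0.152% in the control libraries.

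**Figure D2:**
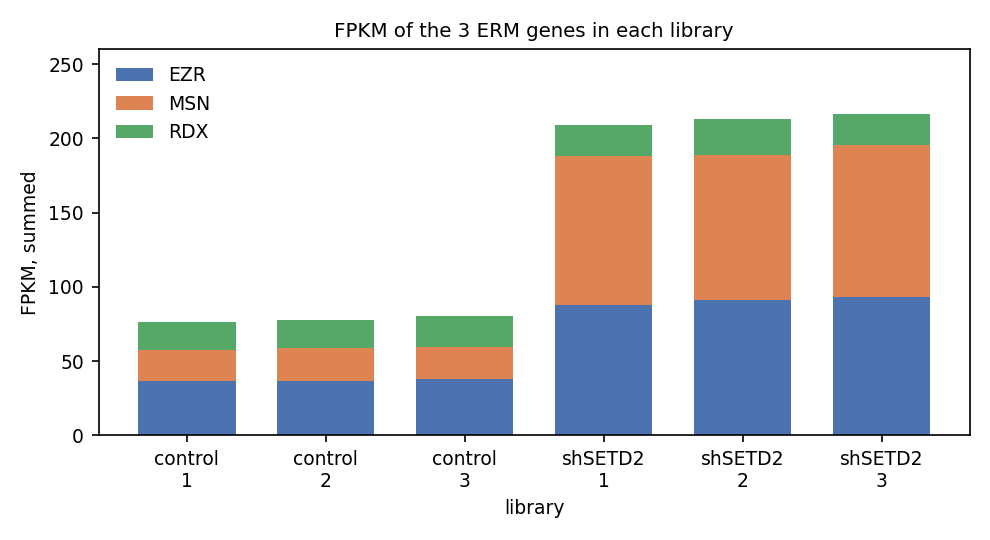
Stacked FPKM of ezrin (EZR), moesin (MSN) and radixin (RDX) in each of the 6 libraries. The sum lies between 76.3 and 80.1 FPKM in control and between 208.8 and 216.3 FPKM in shSETD2 libraries, with a larger moesin part and a radixin part of about the same height.

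NF2 (ENSG00000186575.17_3, chromosome 22 from 29999545 to 30094587), which encodes merlin, had 14.7, 16.0 and 14.3 FPKM in control libraries 1 to 3, against 45.8, 43.6 and 43.7 FPKM in shSETD2 libraries 1 to 3. No library of one group reached the other, and the log2 fold change was 1.50 (standard error 0.053). Set against the ERM sum of the same library, NF2 was at 17.9% to 20.7% in control and 20.2% to 21.9% in shSETD2 libraries. These ranges overlapped, so merlin and the ERM sum differed between the groups by similar factors.

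Over the 8 genes, all shSETD2 libraries were above all control libraries for 6, all were below for 1 (HAS2), and the groups of 1 (RDX) overlapped. Among the 14068 genes tested, all shSETD2 libraries were above for 27.9%, all were below for 53.0%, and 80.9% were without overlap in either direction, so separation of the groups by itself is common in these data. The 7 genes that passed the filter had log2 fold changes from 0.16 to 6.59. Over all tested genes the log2 fold change had a median of -0.29 with the FPKM as deposited and -0.01 after median ratio scaling. Relative to the median of all genes, CD44 stood at 6.88, HAS3 at 5.49, MSN at 2.45, NF2 at 1.79, EZR at 1.56, HMMR at 0.55 and RDX at 0.45 on the log2 scale.

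In order of level per length, the control libraries ran from EZR (mean 37.0 FPKM) through MSN (21.7), RDX (19.4), HMMR (17.9) and NF2 (15.0) down to HAS3 (0.428), HAS2 (0.174) and CD44 (0.0974). Neighbours in this order did not overlap between libraries except RDX with HMMR and HAS3 with HAS2. In the shSETD2 libraries the order was CD44 (104.5 FPKM), MSN (100.2), EZR (90.6), HAS3 (51.0), NF2 (44.4), RDX (21.9), HMMR (21.8) and HAS2 (0.00755), and RDX with HMMR was the 1 pair of neighbours that overlapped. CD44 had moved from the lowest place to the highest.

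Markers of epithelium in general and of other cell types also differed between the groups. The summed FPKM of the 9 listed of 12 epithelial markers was 14.4 to 16.5 in control and 405.4 to 458.4 in shSETD2 libraries, led by the keratins KRT18, KRT8 and KRT7. Of these markers 6 were higher in every shSETD2 library than in any control library and 3 were lower. Among all genes tested, 27.9% were above in this way and 53.0% below. Of the 6, KRT17 (means of 0.0792 FPKM in control and 0.283 FPKM in shSETD2 libraries) and CLDN4 (0.0670 and 0.175 FPKM) were near the floor. They did not pass the filter, nor did EPCAM and CLDN7 of the lower ones. The rest of the 6 were KRT7, KRT8, KRT18 and ELF3. KRT7 had a mean of 0.0208 FPKM in control and 81.9 FPKM in shSETD2 libraries. The 3 lower ones were CDH1, at means of 1.27 FPKM in control and 0.0120 FPKM in shSETD2 libraries, EPCAM, at 0.710 and 0.220 FPKM, and CLDN7, at 0.192 and 7.97e-06 FPKM. All 12 genes of the embryonic kidney list were listed, with a sum of 119.8 to 123.8 FPKM in control and 47.5 to 57.5 FPKM in shSETD2 libraries. That list also holds the neurofilament genes NEFL, NEFM and INA and the gene LIN28B, which are not specific to kidney. Their control means of 21.4, 37.8, 7.38 and 21.5 FPKM were a large part of the control sum, so the sum is not a measure of kidney lineage. SALL1, SIX2, EYA1, NEFL, NEFM, INA and LIN28B of that list were at 0 in every shSETD2 library, and HOXD10 was lower there, at means of 14.9 and 2.75 FPKM. The other 4 were higher in every shSETD2 library. From control to shSETD2 libraries the mean was 0.0172 and 30.8 FPKM for PAX8, 0.739 and 9.93 FPKM for PAX2, 0.802 and 4.65 FPKM for LHX1, and 1.22 and 3.62 FPKM for WT1. The mesenchymal list, with 6 of 9 listed, summed to 68.7 to 85.8 FPKM in control and 130.1 to 139.0 FPKM in shSETD2 libraries. VIM was the 1 gene of the 6 that was higher in every shSETD2 library, at means of 66.5 and 132.4 FPKM. COL1A1 was lower, at means of 2.78 and 0.269 FPKM, as were ACTA2 at 4.43 and 1.12 FPKM, COL3A1 at 0.739 and 0.00854 FPKM, and LUM at 0.651 and 0.0258 FPKM. Leukocytes, which carry much CD44 and moesin, were represented by 2 of 8 markers, at a sum of 0.771 to 0.997 FPKM in control and 1.69 to 1.94 FPKM in shSETD2 libraries, and their defining marker PTPRC was not listed. None of 6 endothelial markers was listed. The part of these differences in the levels of CD44, HAS3 and the ERM genes was not tested.

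The genes nearest in pattern were found by Euclidean distance over the 6 values of log2(FPKM + 1), a measure of the level in each library. For CD44 they were TNF (distance 0.230), TM4SF1 (0.265), LAMB3 (0.358), LRRN4 (0.420) and ICAM1 (0.624). Each of the 5 had a control mean under 0.1 FPKM, and their shSETD2 means ran from 91.7 FPKM for LRRN4 to 133.9 FPKM for ICAM1. HAS3 was nearest to MYOF (0.280) and SQOR (0.384). MSN was nearest to JAK1 (0.132), EZR to GNB1 (0.308) and CDC20 (0.402), and NF2 to DNAJC5 (0.184) and SNX9 (0.206). RDX lay closest to SNRPB2 (0.205) and PSMC2 (0.214), and HMMR to WTAP (0.174) and IDH3B (0.220).

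The rest of the pathway was described with 7 lists of its other genes, 99 in all. They were read from a limma fit over all 14068 genes on log2(FPKM + 1). The lists were chosen with earlier results of these data known, so their counts and p-values do not test the pathway. The lists had 75 genes in the deposited table and 72 that were tested. In limma, with a threshold of 0.05 on the adjusted p, the shSETD2 libraries were higher for 33 of them and lower for 28, or 45.8% and 38.9%, where 26.8% of all genes tested were higher, 51.8% lower and 78.6% either. The counts of each list below are to be read beside these shares of all genes. Over all genes the calls were 3774 higher and 7283 lower, and with median ratio scaling, one of the alternatives, 5305 and 5394. The smallest p that an exact permutation test allows for 2 groups of 3 is 0.1, so these calls rest on the model.

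All 8 enzymes of the list that make the sugar precursors of hyaluronan were tested, and 4 rose, 2 fell and 2 did not pass. UGDH, which makes UDP-glucuronic acid, rose from 4.50 ± 0.0751 to 16.0 ± 0.425 FPKM (SD, n = 3), with an adjusted p of 2.91e-07 from limma. UAP1, which makes UDP-N-acetylglucosamine, rose from 18.6 ± 0.578 to 46.1 ± 0.691 FPKM (SD, n = 3). These are the last enzymes before each of the precursors that HAS3 joins. GNPNAT1, of the same glucosamine branch, fell from 14.9 ± 6.08 to 7.78 ± 0.569 FPKM (SD, n = 3). Control library 1, at 21.9 FPKM, set its spread, the log2 fold change being -0.80 with this library and -0.50 without it, and the call was lost when any 1 of the shSETD2 libraries was left out (limma, adjusted p from 0.0503 to 0.0653). PGM3 had a log2 fold change of -0.17, its sign turned with median ratio scaling, at 0.13, and its call was lost under 8 of 16 alternatives.

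Of 10 genes for hyaluronan breakdown, 6 were tested, and 3 rose, 1 fell and 2 did not pass. HEXA, a lysosomal hexosaminidase subunit, fell from 4.58 ± 0.258 to 0.732 ± 0.0529 FPKM (SD, n = 3). HYAL3, a member of the hyaluronidase family, rose from 1.18 ± 0.192 to 2.35 ± 0.379 FPKM (SD, n = 3). Adjusted p-values were 9.85e-07 for HEXA and 0.00187 for HYAL3 in limma. HYAL4, SPAM1 and CEMIP were not listed.

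Of 20 hyaluronan-binding proteins, 8 were listed and tested, and 4 rose, 3 fell and 1 did not pass. TLR2, a pattern recognition receptor that also responds to hyaluronan fragments, had 0.0257, 0 and 0 FPKM in control libraries 1 to 3, against 8.67, 8.51 and 8.29 FPKM in shSETD2 libraries 1 to 3. TNFAIP6, a secreted protein that modifies hyaluronan, was at 0, 0.0508 and 0 FPKM in control and at 4.13, 4.03 and 3.76 FPKM in shSETD2 libraries. In the other direction, LAYN, a transmembrane hyaluronan receptor, was at 4.29, 3.93 and 4.05 FPKM in control and listed at 0 in every shSETD2 library. HAPLN3, a link protein, fell from 2.66 ± 0.352 to 0.388 ± 0.0855 FPKM (SD, n = 3). The limma adjusted p was 1.33e-05 for HAPLN3 and under that for TLR2, TNFAIP6 and LAYN. Each of these genes had a mean under 0.5 FPKM in 1 group and passed the filter only through the other. Their p-values are therefore a description and no support. LYVE1, STAB1 and STAB2, receptors typical of endothelium, were not listed.

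The list of CD44 ligands, the proteases that cut CD44 and its splicing regulators had 16 genes, of which 10 were tested, and 4 rose, 5 fell and 1 did not pass. MMP14, a membrane metalloproteinase that sheds CD44, rose from 0.628 ± 0.142 to 27.9 ± 1.98 FPKM (SD, n = 3), at a log2 fold change of 4.15 (limma, adjusted p = 1.07e-07). ADAM10, another sheddase, rose from 4.16 ± 0.131 to 8.46 ± 0.785 FPKM (SD, n = 3). Among the splicing regulators, ESRP2 fell from 1.93 ± 0.412 to 0.0219 ± 0.00850 FPKM (SD, n = 3) and TRA2B from 23.8 ± 1.26 to 13.9 ± 1.03 FPKM (SD, n = 3). ESRP1, which promotes variable exons of CD44 in epithelium, did not pass the filter, at a mean of 0.0176 FPKM in control and 0.803 FPKM in shSETD2 libraries. The ligand SPP1 was not listed.

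For partners and kinases of the ERM proteins, 15 of 19 genes were tested, and 5 rose, 7 fell and 3 did not pass. ICAM1, an adhesion molecule whose tail binds ERM proteins, had 0.102, 0.109 and 0.0832 FPKM in control libraries 1 to 3, against 139.6, 128.9 and 133.0 FPKM in shSETD2 libraries 1 to 3. Its log2 fold change of 6.94 was the largest rise among the 72 genes (limma, adjusted p = 2.87e-09). ICAM1 passed the filter only through the shSETD2 libraries, so this p-value is a description and no support. STK10, a kinase that phosphorylates ERM proteins, rose from 4.46 ± 0.148 to 13.3 ± 0.744 FPKM (SD, n = 3). PDPN, a mucin-like glycoprotein anchored through ERM proteins, was at 2.40, 2.67 and 6.97 FPKM in control and listed at 0 in every shSETD2 library. PRKCQ, a protein kinase C, fell from 2.42 ± 0.0366 to 0.0810 ± 0.0195 FPKM (SD, n = 3). With median ratio scaling 8 genes of this list rose in place of 5, or 53.3% in place of 33.3%, where the share over all genes was 37.7% in place of 26.8%.

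All 15 genes of the list of merlin partners and Hippo kinases were tested and all passed, with 8 higher and 7 lower. Of all genes tested 78.6% passed, with 26.8% higher and 51.8% lower. That every gene of the list passed depended on the scaling. Quantile normalization left 7 rises and 5 falls in the list, median ratio scaling 8 and 5, and upper quartile scaling 8 and 6. Quantile normalization called 32.5% of all genes higher and 42.7% lower. FRMD6, a FERM-domain protein that acts upstream of the Hippo kinases, rose from 1.39 ± 0.0369 to 18.9 ± 0.732 FPKM (SD, n = 3). The angiomotins, which bind merlin, differed in both directions. AMOT fell from 48.7 ± 0.797 to 5.09 ± 0.253 FPKM (SD, n = 3) and AMOTL1 from 15.0 ± 0.521 to 4.38 ± 0.171 FPKM (SD, n = 3), whereas AMOTL2 rose from 3.10 ± 0.0870 to 19.9 ± 2.87 FPKM (SD, n = 3). The adjusted p-values of the 4 genes were between 3.88e-08 and 2.05e-06 in limma.

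Of 10 genes of the mitotic spindle and division, the setting in which HMMR acts inside the cell, 5 rose, 3 fell and 2 did not pass. TPX2, which binds HMMR at the spindle, rose from 58.1 ± 1.50 to 150.2 ± 0.600 FPKM (SD, n = 3), and AURKA, the kinase that TPX2 activates, from 16.9 ± 3.86 to 36.9 ± 9.74 FPKM (SD, n = 3). KIF11, a spindle motor, fell from 40.2 ± 2.35 to 27.8 ± 1.33 FPKM (SD, n = 3). CDK1, the mitotic kinase, was at 29.4 ± 1.94 and 22.9 ± 3.03 FPKM (SD, n = 3), with an adjusted p of 0.0153 from limma that became 0.932 with median ratio scaling, where 1 gene of the list fell in place of 3. Without control replicate 2 or shSETD2 replicate 3 the call of CDK1 was also lost (limma, adjusted p = 0.0535 and 0.0509).

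**Figure D3:**
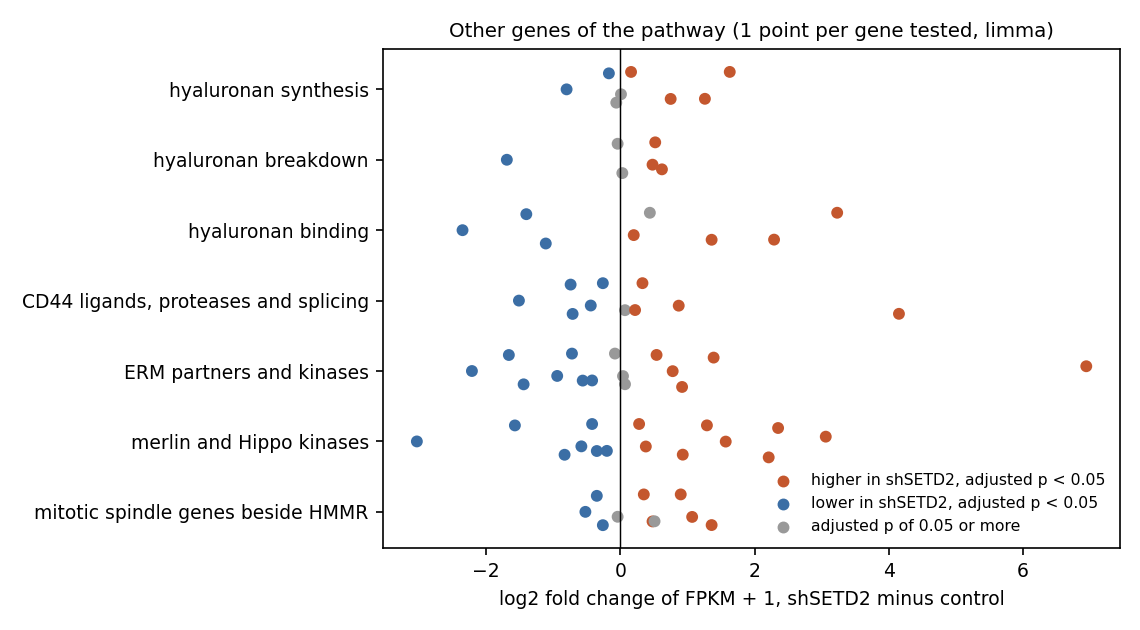
Log2 fold change of FPKM + 1 (shSETD2 minus control) for each tested gene of the 7 lists, colored by the call in limma at an adjusted p under 0.05. Each list holds genes on both sides of 0, with ICAM1 at 6.94 and AMOT at -3.03 as the extremes.

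Genes within 500 kb of each of the 8 were examined to see whether whole stretches of chromosome differed. Of 48 neighbours tested, 14 rose, 24 fell and 10 did not pass in limma. The share that rose, 29.2%, was near the 26.8% of all genes tested, and 24 lower of 48 was near the 51.8% of all genes. The median log2 fold change was -0.22 beside -0.29 for all genes. With median ratio scaling 18 neighbours rose and 13 fell, or 37.5% and 27.1%. Over all genes these shares were 37.7% and 38.3%, so the share that fell was then lower among the neighbours. Around CD44, 4 of 5 neighbours were higher. AL133330.1, a transcript on the strand of CD44 that lies inside its span (chromosome 11 from 35234097 to 35235554) and shares 0 bases with its annotated exons, was listed at 0 in the control libraries and at 12.5, 15.2 and 10.9 FPKM in shSETD2 libraries 1 to 3. How reads there were divided from those of CD44 is not given in the sources used here. FJX1, the nearest listed gene downstream, rose from 5.25 to 23.9 mean FPKM, and TRIM44 beyond it from 8.29 to 22.9. Upstream, PDHX had a log2 fold change of 0.29, its call was lost under 8 of 16 alternatives, and it was 0.16 without shSETD2 library 3.

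Around HAS3, 5 of 16 neighbours rose, 4 fell and 7 did not pass. The nearest on either side, TANGO6 and UTP4, had log2 fold changes of 0.41 and 1.04, and CDH1, the gene of E-cadherin, fell from 1.27 to 0.0120 mean FPKM. The start of HMMR is separated by 62 bases from that of NUDCD2, which runs the other way. NUDCD2 was at 3.00 ± 0.0565 and 3.02 ± 0.657 FPKM (SD, n = 3), with an adjusted p of 0.966 from limma, and its sign turned with the scaling. MAT2B on the other side of HMMR rose, at a log2 fold change of 0.53. Of the neighbours of EZR 5 of 6 were lower, and of those of NF2 9 of 13, where 51.8% of all genes tested were lower. LAS1L, next to MSN, fell with a log2 fold change of -0.35, a call lost with median ratio scaling. Beside RDX, ZC3H12C rose, at a log2 fold change of 1.28, and FDX1 fell, at -0.32, a call lost with quantile normalization and with median ratio scaling. No listed gene lay within 500 kb of HAS2.

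**Figure D4:**
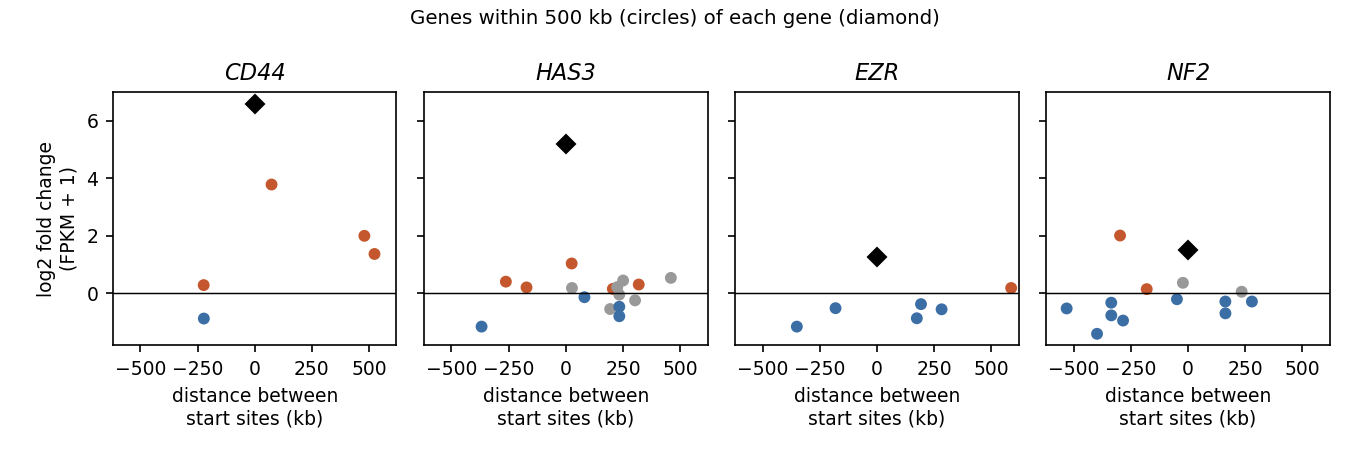
Log2 fold change of FPKM + 1 for CD44, HAS3, EZR and NF2 (black diamonds) and for the tested genes within 500 kb of them (circles, orange for higher, blue for lower and grey for not passing in limma), against the distance between start sites in kb. The diamonds of CD44 at 6.59 and HAS3 at 5.20 lie above all of their neighbours on this scale. With a pseudocount of 0.01, AL133330.1 was at 10.32 and CD44 at 9.94.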

How the data were processed

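RNA of 6 libraries was sequenced on a HiSeq instrument. The authors mapped reads to hg19 (GRCh37) with HISAT2, quantified genes with Ballgown and deposited FPKM per gene and library. Versions and the filter on listed genes are not given in the sources used here. A second deposited table holds the authors' own comparison and was not used. Depth is unknown: 48 values above 0 were below the FPKM of 1 fragment over the whole gene span for a library of 100000000 fragments, so reads could not be recovered, and precision rests on the spread of 3 libraries.

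The test was the moderated one of limma 3.58.1 (R 4.3.3; lmFit, then eBayes with an intensity trend) on log2(FPKM + 1), for genes whose mean FPKM reached 0.5, with Benjamini-Hochberg adjustment over all 14068 genes and a threshold of 0.05. The 8 genes and the lists were chosen with earlier results of these data known. From each list the text names the 2 largest rises and falls that passed. It also names the nearest listed gene on each side of a member, and the 5 genes nearest to CD44 or 2 nearest to another member. Some genes that these rules pick are not reported here. ESRP1, TRIM44, CDH1 and AL133330.1 were named after their values were seen, as were the cell type markers printed. A marker list is described by its summed FPKM. Alternatives were pseudocounts of 0.1 and 0.01, no filter or a mean FPKM of at least 5, 3 scalings, no trend, an ordinary linear model, a replicate block, and each library left out. The fit was tested on simulated data in which few genes differed, unlike in these libraries. Promoters came from RefSeq, exons from GENCODE. Figures were drawn with Python 3.11.15 and matplotlib 3.10.9.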

Additional observations from a re-analysis of the deposited data

How the results depend on the processing

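The direction of CD44, HAS3, HMMR, EZR, MSN, RDX and NF2 held under all 16 alternatives, with log2 fold changes of 6.54 to 9.94, 5.07 to 7.02, 0.14 to 0.60, 1.02 to 1.62, 1.98 to 2.50, 0.03 to 0.50 and 1.36 to 1.84. For CD44 and HAS3 the pseudocount decided the size. Counts of calls moved most with the filter and with median ratio scaling.

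With a mean FPKM of at least 5, which tests fewer genes, calls over all genes were 2401 higher and 3246 lower in place of 3774 and 7283, those of hyaluronan breakdown 1 and 0, those of hyaluronan binding 1 and 0, and the lower calls were 2 for ERM partners and 13 for neighbours. With median ratio scaling, which moved the median of all genes to -0.01, lower calls were 0 for hyaluronan synthesis, 3 for CD44 ligands, proteases and splicing, 1 for spindle genes and 13 for neighbours, and higher calls were 8 for ERM partners. Lower calls of hyaluronan synthesis were 1 with upper quartile scaling, quantile normalization, the ordinary linear model and the replicate block, and ran from 0 to 2 when 1 library was left out (0 without shSETD2 replicate 2 or 3, and 1 without control replicate 1 or 3 or shSETD2 replicate 1), since only GNPNAT1 and PGM3 made up that count. Signs turned for PGM3 (0.13) and ZMAT5 (0.02) with median ratio scaling, and for NUDCD2 with upper quartile scaling (0.06), quantile normalization (0.29), median ratio scaling (0.26), and from -0.11 to 0.13 with 1 library left out. NIPSNAP1, next to NF2, passed only without shSETD2 replicate 3 (limma, adjusted p = 0.000162). The cause was not tested.

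Libraries with the same number did not deviate together (correlations of -0.02, 0.02 and -0.01). No pairing by number was visible, but a matched preparation of libraries may leave no such trace. The replicate block gave 1 lower call for hyaluronan synthesis and moved no other count of calls by over 1.5 times.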
